A study of Mus musculus with 14 samples.

Results

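Mouse blastocysts cultured in the media ISM1 and ISM2 were compared with the oviduct group on whole-transcriptome bead arrays. The comparison took the 3 arrays titled for blastocysts in ISM1/ISM2 and the 3 arrays titled oviduct, 6 of the 14 arrays of the series. Of 25697 probes on the array, 10975 were tested, those with a detection p under 0.01 on at least 2 of the 14 arrays. With 1 probe kept per gene symbol, the one with the highest mean over all arrays, these made 8669 units, of which 8025 had a gene symbol. The study asked whether changes seen in blastocysts after intracytoplasmic sperm injection (ICSI) and embryo culture are passed on to the offspring.

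The ISM1/ISM2 group was described as blastocysts grown in ISM1 and ISM2 medium, in 3 biological replicates. The oviduct group had 3 biological replicates and was described only by the word oviduct, as its cell type and in the series text. The remaining groups served as reference here. HTF/MultiBlast (3 arrays) was described as multiblastocysts in HTF medium, KSOM(aa) (2 arrays) as blastocysts in KSOM(aa) medium, and the micromanipulation control (3 arrays) by that name alone. The titles of its arrays number them 1 to 3 while their descriptions all say replicate 1, so they may be repeats of 1 sample. No group carried a genetic alteration or drug in its labels. Strain, age, the origin of the embryos, the number of embryos pooled per array and the composition of the media were not given in the sources used here.

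A blastocyst is the hollow embryo that implants. Its outer layer, the trophectoderm, pumps fluid into the cavity and later builds the placenta. The inner cell mass separates into the epiblast, which forms the body, and the primitive endoderm, which lies on the cavity side and secretes a basement membrane. Oviduct fluid supplies amino acids, while the amino acid content of the media used here was not given. Cells that lack an amino acid, or whose endoplasmic reticulum is under stress, raise translation of the transcription factor ATF4. This factor switches on amino acid carriers, synthesis enzymes and aminoacyl-tRNA synthetases.

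The label oviduct was checked against marker genes. Of 15 blastocyst markers, 14 to 15 were detected on each oviduct array and 14 on each ISM1/ISM2 array, with summed signals of 43820 to 48070 and 38800 to 45200. Of 11 markers of oviduct epithelium, 2 were detected on the oviduct arrays, *Wfdc2* and *Elf3*, both also detected on every ISM1/ISM2 array, and the list's summed signal was 8512 to 10430 on oviduct and 8311 to 11390 on ISM1/ISM2 arrays. *Ovgp1*, the secreted oviduct glycoprotein, and *Pax8* were not detected. None of 7 cumulus and granulosa markers was detected on any array, and of 10 muscle and stroma markers 1 to 3 were detected per array. Of 8 blood and immune markers, *Lyz2*, *S100a9* and *Laptm5* were detected on oviduct arrays and *Laptm5* alone on ISM1/ISM2 arrays, with summed signals of 1983 to 2413 and 3415 to 4961.

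Median raw intensity ran from 96.6 to 152 over the 14 arrays, both extremes among the oviduct arrays (replicates 1 and 2), and 33.2% to 39.6% of probes were detected. Pearson correlations over the tested units were 0.967 to 0.984 among the ISM1/ISM2 arrays, 0.938 to 0.965 among the oviduct arrays and 0.893 to 0.933 between the groups. The root mean square SD over units was 0.377 on the log2 scale within ISM1/ISM2 and 0.504 within oviduct. Some oviduct arrays correlated better with another group than with part of their own. Oviduct replicate 2 correlated at 0.965 and 0.960 with oviduct replicates 1 and 3, and at 0.976 to 0.977 with the micromanipulation control arrays. Oviduct replicate 3 correlated at 0.938 with oviduct replicate 1 and at 0.948 to 0.949 with those control arrays. KSOM(aa) replicate 2 also stood apart from its group. It correlated at 0.940 with the other KSOM(aa) array and at 0.970 with oviduct replicate 1 and with oviduct replicate 2. Counts against KSOM(aa) are given below with and without each of its arrays. Precision is set by how few arrays each group has, and p-values measure the spread between these arrays.

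In the linear model over all 5 groups (limma, Benjamini-Hochberg adjusted p under 0.05), 2237 of 8669 units differed between ISM1/ISM2 and oviduct, which is 25.8% of all units. Of these, 1236 were higher in ISM1/ISM2 (14.3%) and 1001 were lower (11.5%). A difference of at least 2-fold was seen for 1330 of them, and of at least 4-fold for 302, 156 higher and 146 lower. The median difference over all units was 0.02 on the log2 scale. As the micromanipulation control has the smallest spread of the groups (root mean square SD 0.249), the fit was also run without it, a choice made after seeing the data, which gave 1760 units, 1757 of them among the 2237. The count was 1456 when only the 6 arrays of the 2 groups were fitted, and 1187 when oviduct replicate 2 stood as the only oviduct array. In bulk RNA, fewer cells of a type and less RNA per cell cannot be told apart, here and in all results that follow.

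**Figure D1:**
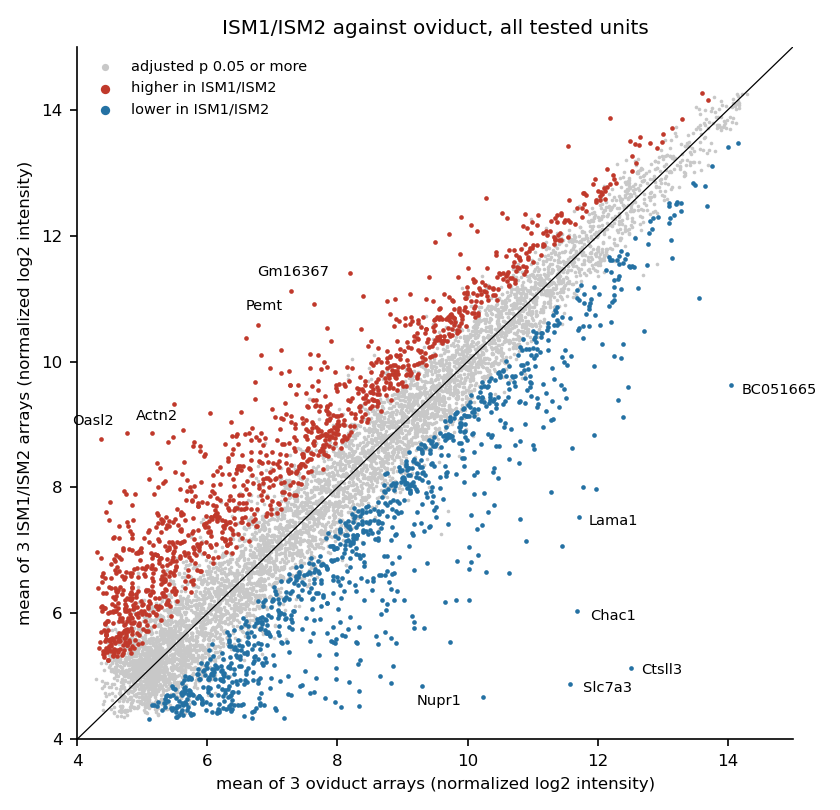
Mean normalized log2 intensity of each of the 8669 tested units on the 3 oviduct arrays (horizontal axis) and the 3 ISM1/ISM2 arrays (vertical axis), with the diagonal of equal levels. Red points are the 1236 units higher and blue points the 1001 units lower in ISM1/ISM2 at an adjusted p under 0.05, and the falls of *Ctsll3*, *Slc7a3*, *Chac1* and *Nupr1* reach the lower right, where oviduct levels are above 10 and ISM1/ISM2 levels near 5 or 6.

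Levels below are normalized log2 intensities, listed for replicates 1, 2 and 3 in turn, and differences are ISM1/ISM2 minus oviduct on the same log2 scale with the standard error (SE) of the limma fit. Where no array of a group detected a gene, the fold is a lower bound, written "at least". Groups do not overlap where every array of one lies above every array of the other. Genes named below were chosen largely by small p-values, by name or as large differences without overlap. A lack of overlap among them therefore describes their values and is no separate evidence. The share of all units without overlap is not given here.

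The largest fitted difference was that of *Ctsll3*, a cathepsin L-like protease gene on chromosome 13. It read 12.08, 12.90 and 12.55 on the oviduct arrays and 4.34, 5.72 and 5.35 on the ISM1/ISM2 arrays, a difference of -7.37 ± 0.52 (SE; adjusted p = 1.27e-06). Only 1 of the 3 ISM1/ISM2 arrays detected it at all, and the groups were separated by more than 6 log2 units. *BC051665*, another gene of chromosome 13 from the same list of proteases, read 13.78, 14.25 and 14.11 on the oviduct arrays against 8.10, 10.57 and 10.20 with ISM1/ISM2. Its difference was -4.42 ± 0.47 (adjusted p = 2.89e-05), and ISM1/ISM2 replicate 1 was the lowest array. Whether the probes of these 2 genes share signal was not tested.

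Cytoskeletal, secreted and patterning genes were also among the 12 largest falls. *Fhl1*, a LIM-domain protein of muscle, read 8.29, 9.20 and 10.41 on the oviduct arrays and 5.03, 5.22 and 4.27 on the ISM1/ISM2 arrays. It was at least 15.1-fold lower in ISM1/ISM2 (adjusted p = 2.48e-05), and its other tested probe differed by -4.31. *Irx2*, a homeobox factor, read 7.15, 8.98 and 8.89 on the oviduct arrays and stayed at background, 4.46, 4.65 and 4.45, with ISM1/ISM2 (at least 7.78-fold lower, adjusted p = 5.45e-05). *Stc2*, a secreted stanniocalcin and an ATF4 target, read 7.85, 9.22 and 9.41 against 4.91, 5.05 and 4.70, at least 10.9-fold lower (adjusted p = 3.92e-05). On the ISM1/ISM2 arrays all 3 genes were below detection.

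**Figure D2:**
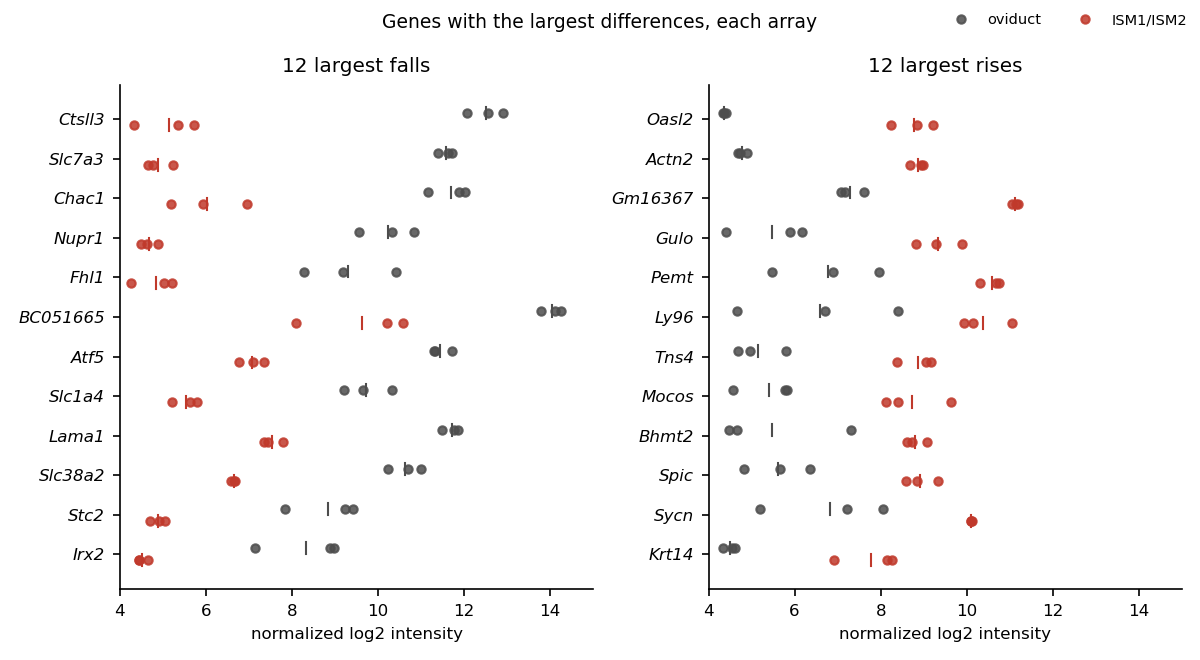
Normalized log2 intensity on each oviduct (grey) and ISM1/ISM2 (red) array for the 12 largest falls (left) and 12 largest rises (right) among genes past the threshold whose arrays do not overlap; vertical ticks are group means. *Slc7a3*, *Nupr1* and *Irx2* sit near background on all 3 ISM1/ISM2 arrays, while *Oasl2*, *Actn2* and *Krt14* sit there on all 3 oviduct arrays.

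Most of the tested amino acid carriers were lower in ISM1/ISM2. Of 27 listed carriers, 16 were tested, and 10 of these fell and 0 rose, against 11.5% and 14.3% of all units. Their median difference was -1.84, against 0.02 over all units. *Slc7a3*, which imports the cationic amino acids arginine and lysine, read 11.39, 11.62 and 11.72 on the oviduct arrays and 4.65, 5.23 and 4.77 on the ISM1/ISM2 arrays. It was not well above background on any ISM1/ISM2 array and at least 73.6-fold lower there (adjusted p = 2.61e-08). *Slc1a4*, a carrier of alanine, serine and cysteine, read 9.22, 9.64 and 10.33 against 5.62, 5.79 and 5.22 with ISM1/ISM2, a difference of -4.19 ± 0.28 (adjusted p = 7.61e-07).

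*Slc38a2*, the sodium-coupled neutral amino acid transporter of the stress-regulated system A, read 10.23, 10.68 and 10.99 on the oviduct arrays and 6.58, 6.69 and 6.66 on the ISM1/ISM2 arrays. Its difference was -3.99 ± 0.32 (adjusted p = 4.08e-06). A second probe of the gene differed by -3.96 and another by -0.25, so its probes disagreed. *Slc7a5*, the light chain of the large neutral amino acid exchanger, read 11.62, 11.75 and 11.45 against 9.03, 8.38 and 8.48, a difference of -2.98 ± 0.28 (adjusted p = 1.11e-05). *Slc3a2*, the heavy chain that brings *Slc7a5* to the membrane, differed by -2.08 ± 0.22, and *Slc7a8*, an alternative light chain, by -3.20 ± 0.26. *Slc6a9*, the glycine carrier GLYT1 of early embryos, read 9.65, 9.67 and 9.62 on the oviduct arrays and 6.34, 5.50 and 6.68 with ISM1/ISM2 (-3.47 ± 0.43, adjusted p = 8.14e-05). All ISM1/ISM2 arrays lay below all oviduct arrays for each of these carriers, a separation that the choice of genes by small p-values favours.

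Among 17 tested amino acid synthesis enzymes of 20 listed, 6 fell and 0 rose, with a median difference of -0.87. *Asns*, asparagine synthetase and a standard ATF4 target, read 13.54, 13.44 and 13.69 on the oviduct arrays and 11.16, 10.90 and 10.99 on the ISM1/ISM2 arrays. The difference was -2.54 ± 0.16 (adjusted p = 7.61e-07), and the other probes of *Asns* differed by -1.13 and -3.02. *Aldh18a1*, the first enzyme of proline synthesis, read 10.66, 10.32 and 9.09 against 7.11, 6.20 and 6.81 (-3.32 ± 0.37, adjusted p = 3.94e-05). *Mthfd2*, a mitochondrial enzyme of folate-bound one-carbon units, read 9.31, 10.49 and 10.28 against 7.25, 6.96 and 6.94 (-2.97 ± 0.28, adjusted p = 1.11e-05).

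The serine branch was uneven. *Shmt2*, which splits serine into glycine in mitochondria, differed by -2.04 ± 0.31 (adjusted p = 0.000492) and *Psat1*, the phosphoserine aminotransferase, by -1.22 ± 0.19 (adjusted p = 0.00061). *Phgdh*, the enzyme that opens the branch, was detected on 0 ISM1/ISM2 arrays and 1 oviduct array, so both groups were mostly below detection (-0.34 ± 0.18, adjusted p = 0.183). *Cth*, of cysteine synthesis, read 5.25, 6.95 and 5.57 on the oviduct arrays and 4.64, 4.80 and 5.68 with ISM1/ISM2, with overlapping groups and an adjusted p of 0.187.

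The cytosolic aminoacyl-tRNA synthetases, which load amino acids onto tRNA, moved with smaller steps. Of 24 listed, 21 were tested, and 13 fell and 0 rose, with a median of -0.89. *Lars*, the leucine enzyme, read 11.06, 11.29 and 11.14 on the oviduct arrays and 8.82, 9.08 and 8.99 with ISM1/ISM2 (-2.20 ± 0.28, adjusted p = 0.000124). *Nars*, the asparagine enzyme, differed by -1.59 ± 0.21 (adjusted p = 0.000151), *Tars*, for threonine, by -1.37 ± 0.21 (adjusted p = 0.000565), and *Rars*, for arginine, by -1.31 ± 0.23 (adjusted p = 0.00126). The mitochondrial synthetases are encoded by separate genes. Of 10 tested among 17 listed, 1 fell, *Iars2* (-1.13 ± 0.23, adjusted p = 0.00312), and the list's median was 0.01.

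Of 26 genes listed as ATF4 factors and effectors, 20 were tested, and 12 fell and 0 rose, with a median of -0.96. *Atf4* itself read 7.21, 7.35 and 7.23 on the oviduct arrays and 5.51, 5.76 and 6.09 on the ISM1/ISM2 arrays (-1.47 ± 0.39, adjusted p = 0.0139). Without ISM1/ISM2 replicate 1 its adjusted p was 0.0574. *Atf5*, a related factor under the same translational control, read 11.71, 11.29 and 11.33 against 7.35, 7.10 and 6.78 (-4.37 ± 0.49, adjusted p = 4.14e-05).

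Partner factors also fell. *Cebpb*, a dimer partner of ATF4, differed by -2.42 ± 0.24 (adjusted p = 1.9e-05), and *Jdp2*, a repressor of the same leucine-zipper class, read 7.76, 8.84 and 9.02 on the oviduct arrays and 5.98, 6.41 and 6.70 with ISM1/ISM2 (-2.17 ± 0.40, adjusted p = 0.00176). *Ddit3*, the stress factor CHOP, differed by -1.52 ± 0.37 (adjusted p = 0.00957), a call that was lost when only the 2 groups were fitted. No partner factor named here had overlapping groups.

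Of the effectors, *Chac1* and *Nupr1* had the largest fitted differences of the list. *Chac1*, which degrades glutathione, read 11.87, 12.02 and 11.17 on the oviduct arrays and 6.95, 5.19 and 5.94 on the ISM1/ISM2 arrays, a difference of -5.66 ± 0.38 (adjusted p = 7.61e-07). *Nupr1*, a small stress-response chromatin protein, read 10.84, 10.33 and 9.56 against 4.62, 4.88 and 4.50. It was at background on all 3 ISM1/ISM2 arrays and at least 29.1-fold lower (adjusted p = 7.61e-07). *Ddit4*, an inhibitor of the growth kinase mTORC1, read 10.56, 10.46 and 9.90 against 8.29, 7.05 and 7.48 (-2.70 ± 0.56, adjusted p = 0.0036).

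ATF4 dimers bind a composite element (CARE) with the letters TGATGNAA. These letters were searched on both strands in RefSeq promoter windows of 300 bases (GRCm38.p6, 250 before to 50 after the transcript start), where 4.51% of all 27025 genes hold a match. Of 18 ATF4 factors and effectors with a window, 4 held it, *Chac1*, *Nupr1*, *Vldlr* and *Jdp2*, and all 4 were among the genes that fell, as were 7 of the 14 without it. It was present for 5 of 14 cytosolic synthetases, *Gars*, *Iars*, *Tars* and *Yars* among them, of which 4 fell, against 3 of the 9 without it. It was also found for 2 of 14 carriers (*Slc7a7* and *Slc1a4*), which both fell, against 6 of the 12 without it. Of 2 synthesis enzymes with a match (*Asns* and *Got1*), 1 fell, against 5 of the 12 without it. The bases around the match are printed for 5 genes that fell, in the sense of the gene, with the matching letters in capitals, in either orientation; a match is a description of the letters and not a measured binding site.
Asns, chr6:7693210-7693247, minus strand: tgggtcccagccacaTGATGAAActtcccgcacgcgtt
Chac1, chr2:119351034-119351071, plus strand: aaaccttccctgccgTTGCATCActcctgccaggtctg
Nupr1, chr7:126625558-126625595, minus strand: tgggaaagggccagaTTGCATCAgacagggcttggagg
Vldlr, chr19:27216805-27216842, plus strand: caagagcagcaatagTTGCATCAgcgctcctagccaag
Jdp2, chr12:85599368-85599405, plus strand: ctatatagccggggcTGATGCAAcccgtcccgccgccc

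The printed matches of *Chac1*, *Nupr1* and *Vldlr* hold the same 8 letters, on the strand opposite to the gene, and those of *Asns* and *Jdp2* lie on the gene's own strand. *Vldlr*, a lipoprotein receptor, differed by -1.13, the smallest step among the 5 genes printed.

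The unfolded protein response acts beside ATF4 when proteins misfold in the endoplasmic reticulum. Of 17 tested genes of 29 listed, 6 fell and 0 rose, with a median of -0.73. The falls numbered 3 under scaling to the 75th percentile and when only the 2 groups were fitted. *Herpud1*, of the degradation machinery in that membrane, read 12.21, 12.40 and 12.33 on the oviduct arrays and 9.42, 9.31 and 9.41 on the ISM1/ISM2 arrays (-2.93 ± 0.21, adjusted p = 1.6e-06). *Xbp1*, a factor activated by splicing under this stress, differed by -1.21 ± 0.22 (adjusted p = 0.00165), and *Syvn1*, a ubiquitin ligase, by -0.92 ± 0.20 (adjusted p = 0.00424). *Dnajb9*, a chaperone that XBP1 induces, read 7.63, 8.92 and 8.38 against 9.24, 7.99 and 9.73 and was not called (adjusted p = 0.334).

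**Figure D3:**
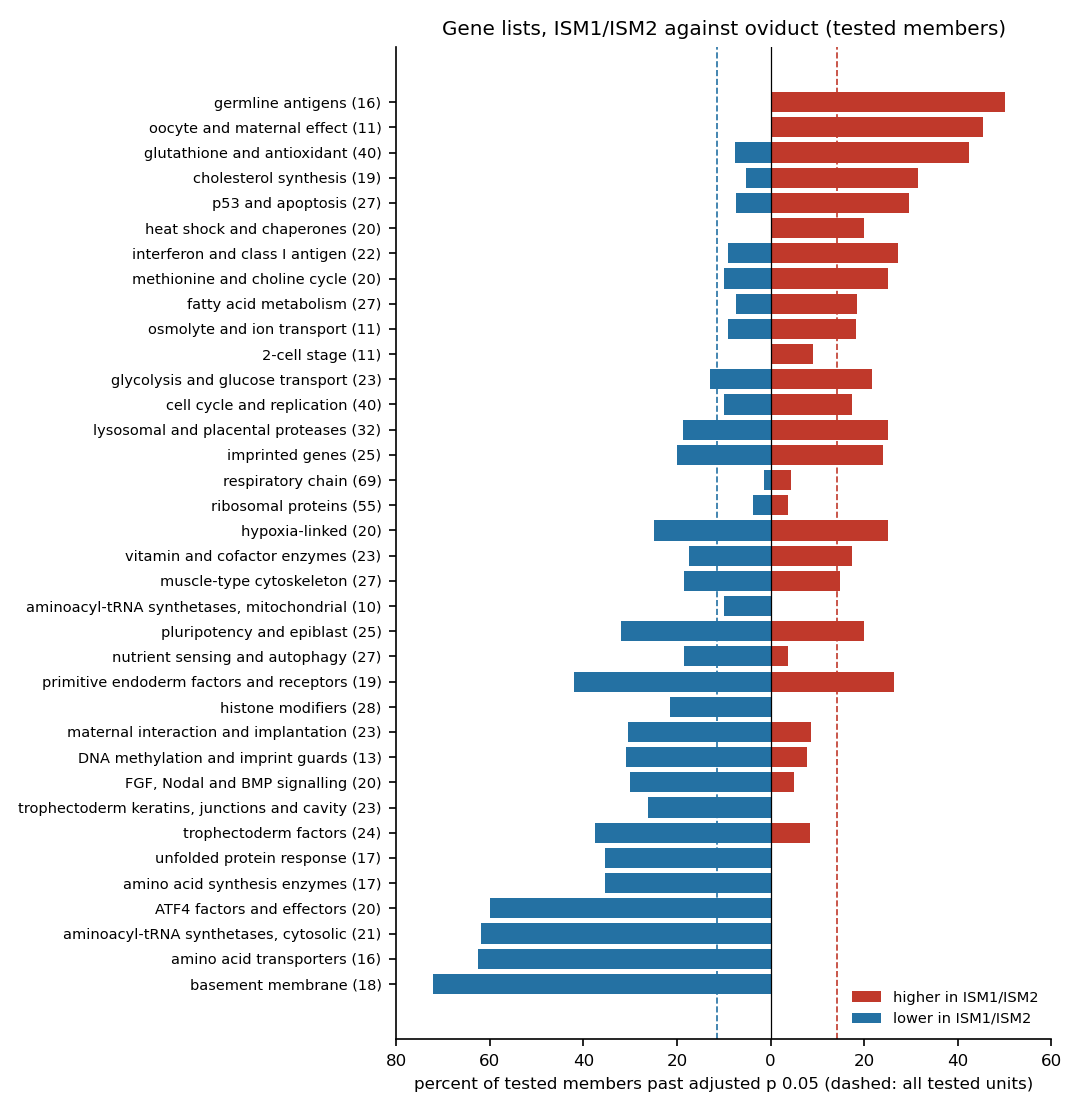
Percent of tested members of each gene list (number tested in brackets) past an adjusted p of 0.05, higher (red, right) and lower (blue, left) in ISM1/ISM2 than in oviduct. Dashed lines mark the same shares over all tested units, 14.3% higher and 11.5% lower, and basement membrane genes, amino acid carriers, cytosolic synthetases and ATF4 genes extend farthest to the lower side.

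The basement membrane list held the largest share of falls. Of 21 listed genes, 18 were tested, and 13 fell and 0 rose, with a median of -1.76. The chains of the main early-embryo laminin, *Lama1*, *Lamb1* and *Lamc1*, were all lower. *Lama1* read 11.85, 11.49 and 11.78 on the oviduct arrays and 7.35, 7.44 and 7.80 on the ISM1/ISM2 arrays, a difference of -4.18 ± 0.24 (adjusted p = 4.81e-07). *Lamb1* read 10.15, 9.80 and 10.73 against 7.19, 7.46 and 7.58 (-2.82 ± 0.24, adjusted p = 6.09e-06). *Lamc1* differed by -2.55 ± 0.30 (adjusted p = 6.13e-05).

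Other matrix components fell with the laminins. *Hspg2*, the heparan sulfate proteoglycan perlecan, read 8.73, 8.33 and 8.89 on the oviduct arrays and 5.03, 4.78 and 5.17 with ISM1/ISM2, at least 9.66-fold lower (adjusted p = 2.86e-06). *Nid1*, which links laminin to collagen, differed by -2.81 ± 0.53 (adjusted p = 0.00201). The collagen IV chains differed less, *Col4a1* by -1.43 ± 0.18 (adjusted p = 9.22e-05) and *Col4a2* by -1.99 ± 0.30 (adjusted p = 0.000444). *Serpinh1*, the collagen chaperone HSP47, averaged 8.32 ± 0.21 (SD, n = 3) on the oviduct arrays and 5.19 ± 0.16 (SD, n = 3) with ISM1/ISM2 and was at least 7.67-fold lower (adjusted p = 7.67e-07). *Sparc*, a collagen-binding matrix protein made in quantity by parietal endoderm, differed by -3.01 ± 0.32 (adjusted p = 2.61e-05). No ISM1/ISM2 array reached the lowest oviduct array for these genes.

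Primitive endoderm, which secretes this matrix, showed both directions. Of 30 listed factors and receptors, 19 were tested, of which 5 rose and 8 fell, with a median of -0.28. The number of rises was 2 to 3 without ISM1/ISM2 replicate 1 (3) or 3 (2), or without oviduct replicate 2 (3) or 3 (2). *Gata6*, which starts the lineage, read 11.42, 11.34 and 11.27 on the oviduct arrays and 12.06, 11.66 and 12.05 on the ISM1/ISM2 arrays, higher by 0.58 ± 0.18 (adjusted p = 0.0323). That call was lost without any one of ISM1/ISM2 replicates 1 and 3 and oviduct replicates 2 and 3, and without the micromanipulation control group, with an adjusted p of up to 0.111.

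Later endoderm factors were lower. *Sox17* read 8.93, 9.81 and 10.28 on the oviduct arrays and 8.41, 7.68 and 8.48 with ISM1/ISM2 (-1.48 ± 0.34, adjusted p = 0.00594). *Sox7*, which follows *Sox17* in the same cells, read 7.22, 7.81 and 7.69 against 4.89, 4.64 and 4.68, at least 4.58-fold lower (adjusted p = 6.2e-06). *Srgn*, a proteoglycan core protein, read 8.21, 7.98 and 7.98 against 4.56, 4.55 and 4.44, at least 6.40-fold lower (adjusted p = 7.61e-07), while its other probe differed by -0.74. *Amn*, the membrane anchor of the endoderm uptake receptor, differed by -2.41 ± 0.27 (adjusted p = 4.32e-05), and *Foxq1*, a forkhead factor, by -2.77 ± 0.25 (adjusted p = 9.23e-06).

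Not every endoderm gene was lower. *Dab2*, the adaptor for uptake receptors, read 12.84, 13.19 and 12.76 on the oviduct arrays and 13.16, 13.19 and 13.15 with ISM1/ISM2, with overlapping groups (adjusted p = 0.439). *Afp*, the fetal serum protein of later visceral endoderm, was at background on the oviduct arrays, 4.35, 4.42 and 4.38, and read 6.18, 5.06 and 7.11 with ISM1/ISM2. It was detected on 2 of the 3 ISM1/ISM2 arrays, at least 1.70-fold higher (adjusted p = 0.00351), and lost its call under scaling to the 75th percentile.

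The trophectoderm list also leaned downward, with 9 falls and 2 rises among 24 tested of 26 listed and a median of -0.46. The rises numbered 1 without ISM1/ISM2 replicate 1 or 2 or oviduct replicate 1 or 3. *Elf5*, a factor that keeps trophoblast stem cells in their state, read 10.82, 10.95 and 10.94 on the oviduct arrays and 6.33, 8.23 and 6.88 on the ISM1/ISM2 arrays. It differed by -3.75 ± 0.37 (adjusted p = 1.8e-05), and its other probe by -3.56. *Eomes*, a T-box factor of the same stem cells, read 11.08, 11.17 and 11.38 against 8.91, 9.39 and 9.35 (-1.99 ± 0.20, adjusted p = 1.9e-05). *Ets2*, of the FGF-driven circuit, differed by -1.79 ± 0.23 (adjusted p = 0.000101), and *Arid3a* by -2.02 ± 0.33 (adjusted p = 0.000785).

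The factors that set up the layer differed less. *Cdx2*, the master factor of trophectoderm, read 12.85, 12.94 and 12.96 on the oviduct arrays and 12.30, 12.62 and 12.15 with ISM1/ISM2, without overlap, at an adjusted p of 0.139 (-0.56 ± 0.27). *Tead4*, its upstream activator, differed by -0.52 ± 0.27 (adjusted p = 0.179), with its other probe at 0.59. *Tfap2c*, a partner factor, differed by -0.17 ± 0.16 (adjusted p = 0.482), with other probes at -0.05 and -1.26. *Gata2*, which drives trophoblast genes, was lower by -1.03 ± 0.20 (adjusted p = 0.00214).

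The epithelial genes of the layer had 6 falls and 0 rises among 23 tested of 32 listed, with a median of -0.34. *Krt8*, the main trophectoderm keratin, read 14.01, 14.03 and 13.80 on the oviduct arrays and 13.73, 14.07 and 13.66 with ISM1/ISM2 (adjusted p = 0.699). *Krt18* (adjusted p = 0.642) and the adhesion gene *Cdh1* (adjusted p = 0.3) also overlapped. The members that fell included 2 water channels and a junction gene. *Aqp8*, a water channel, read 8.88, 8.79 and 8.56 against 5.73, 6.24 and 6.20 (-2.69 ± 0.26, adjusted p = 1.38e-05). *Aqp3*, another channel, differed by -1.93 ± 0.38 (adjusted p = 0.00248), *Cldn3*, a tight-junction protein, by -2.03 ± 0.33 (adjusted p = 0.000781), and *Atp1b1*, a subunit of the sodium pump that fills the cavity, by -0.99 ± 0.18 (adjusted p = 0.00145).

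Pluripotency and epiblast genes split, with 5 rises and 8 falls among 25 tested of 33 listed and a median of -0.43. The number of falls was 5 without ISM1/ISM2 replicate 1. *Pou5f1*, the OCT4 gene, read 8.70, 7.82 and 7.77 on the oviduct arrays and 8.13, 8.23 and 7.86 with ISM1/ISM2, a difference of -0.02 ± 0.56 (adjusted p = 0.984). *Nanog*, which specifies the epiblast, read 10.85, 11.19 and 10.89 against 12.06, 11.97 and 12.11 and was higher by 1.07 ± 0.21 (adjusted p = 0.00279). *Dppa3*, a germline and maternal-effect gene also made in the inner cell mass, read 9.74, 8.12 and 8.43 against 10.62, 10.54 and 11.73 (2.20 ± 0.39, adjusted p = 0.00141). *Spic*, an ETS factor, read 6.37, 5.66 and 4.83 against 8.58, 8.84 and 9.33 (3.30 ± 0.37, adjusted p = 3.92e-05). Its other probe differed by 0.77.

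Other members of that list were lower. *Tcl1*, an AKT cofactor of embryonic stem cells, differed by -1.86 ± 0.22 (adjusted p = 5.88e-05) and *Klf4*, a pluripotency factor, by -1.17 ± 0.25 (adjusted p = 0.00452). The orphan receptor gene *Nr5a2*, which acts upstream of *Pou5f1*, was higher by 1.29 ± 0.19 (adjusted p = 0.00043). Factors called in opposite directions were therefore found within 1 list.

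Signals between these lineages showed 6 falls and 1 rise among 20 tested genes of the FGF, Nodal and BMP list (38 listed, median -0.27). *Bmp4*, a ligand of the inner cell mass, read 8.38, 8.96 and 9.34 on the oviduct arrays and 5.62, 6.31 and 4.63 with ISM1/ISM2 (-3.37 ± 0.35, adjusted p = 2.48e-05). *Lefty2*, a secreted Nodal inhibitor, read 6.08, 6.80 and 6.83 against 4.28, 4.40 and 4.40, at least 2.28-fold lower (adjusted p = 8e-05), and *Lefty1*, its close relative, detected on 2 of the 3 oviduct arrays, was at least 1.78-fold lower (adjusted p = 0.00385). *Dusp6*, a phosphatase that ERK signalling induces and that damps it, differed by -2.11 ± 0.31 (adjusted p = 0.000323). *Dusp4*, of the same phosphatase family, was higher by 1.01 ± 0.24 (adjusted p = 0.00861), a call lost when only the 2 groups were fitted. *Fgfr2*, the FGF receptor of trophectoderm and primitive endoderm, differed by 0.01 ± 0.40 (adjusted p = 0.993), and its second probe by -1.34.

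**Figure D4:**
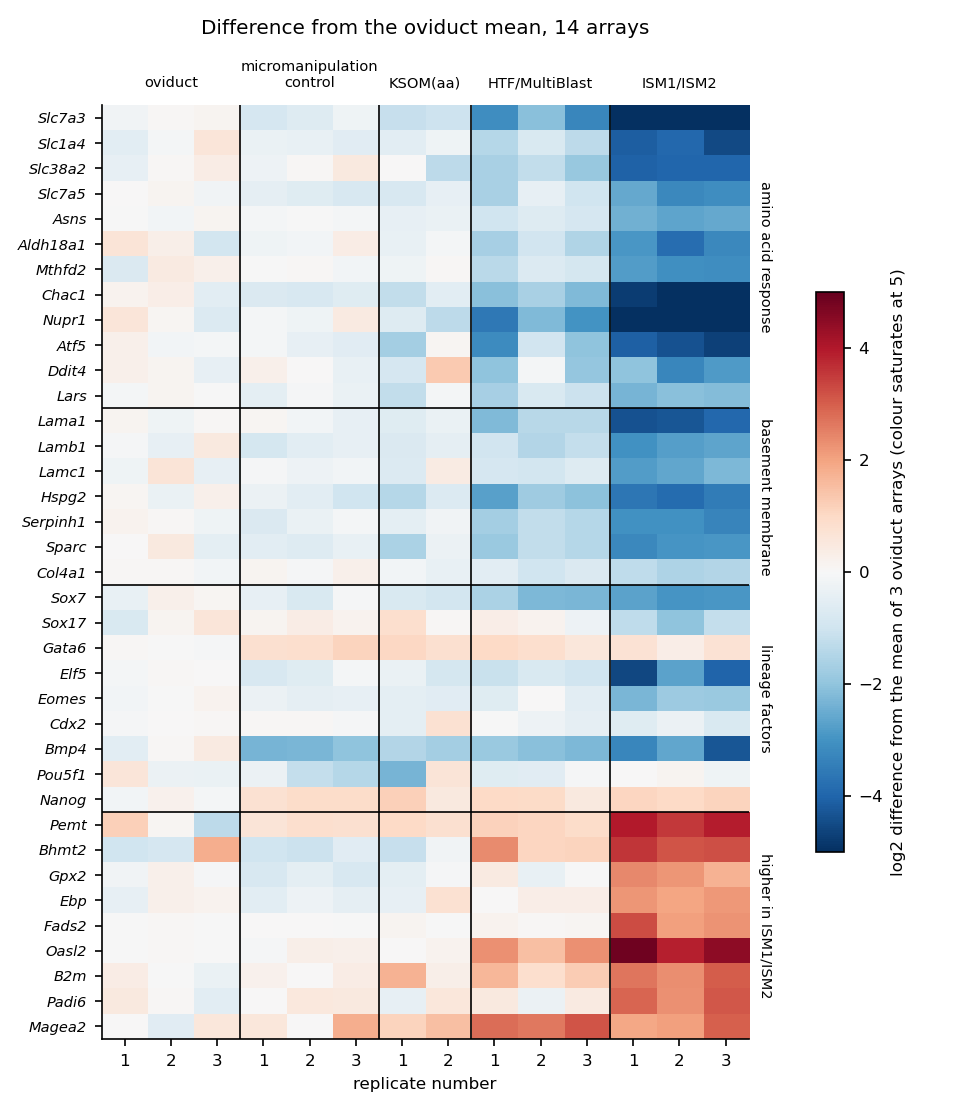
Difference of each of the 14 arrays from the mean of the 3 oviduct arrays (log2 scale, blue lower and red higher, colour saturated at 5) for genes of the amino acid response, the basement membrane, lineage factors and genes higher in ISM1/ISM2. The 3 ISM1/ISM2 columns on the right are the darkest for *Slc7a3*, *Chac1*, *Lama1* and *Elf5*, with HTF/MultiBlast paler in the same genes.

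Genes of contact with the mother had 7 falls and 2 rises among 23 tested of 40 listed, with a median of -0.28. *Hbegf*, a ligand of the EGF receptor, read 7.54, 7.77 and 7.83 on the oviduct arrays and 5.09, 5.79 and 5.11 with ISM1/ISM2 (-2.38 ± 0.27, adjusted p = 4.45e-05). *Timp1*, an inhibitor of matrix proteases, differed by -1.82 ± 0.22 (adjusted p = 8e-05). *Hpgd*, which inactivates prostaglandins, was at background on every ISM1/ISM2 array and at least 1.94-fold lower (adjusted p = 0.00158). *Tns4*, a tensin of focal adhesions, moved the other way, from 4.95, 5.80 and 4.69 to 9.17, 8.39 and 9.05 (3.72 ± 0.36, adjusted p = 1.6e-05), and *Itgb5*, an integrin chain, was higher by 1.54 ± 0.27 (adjusted p = 0.00135).

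Imprinted genes, expressed from 1 parental copy, gave 6 rises and 5 falls among 25 tested of 45 listed, with a median of 0.11. The number of rises was 3 without ISM1/ISM2 replicate 1 or 3 or oviduct replicate 2, and that of falls 3 without ISM1/ISM2 replicate 1. *Grb10*, a maternally expressed adaptor that restrains growth, read 10.51, 11.74 and 11.58 on the oviduct arrays and 8.11, 8.32 and 7.35 with ISM1/ISM2 (-3.35 ± 0.37, adjusted p = 3.92e-05). *Igf2*, a paternally expressed growth factor, read 11.09, 10.98 and 10.88 against 9.85, 9.97 and 9.13 (-1.33 ± 0.25, adjusted p = 0.00187). Growth-promoting and growth-restraining genes were thus both among those that fell.

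The Kcnq1 cluster on chromosome 7 held members of both signs. *Phlda2*, a maternally expressed brake on placental growth, read 11.02, 10.66 and 11.24 on the oviduct arrays and 10.13, 9.11 and 9.10 with ISM1/ISM2 (-1.52 ± 0.29, adjusted p = 0.00192). *Cdkn1c*, a maternally expressed cell cycle inhibitor, read 6.84, 8.12 and 8.28 against 10.46, 9.88 and 9.29 (2.13 ± 0.41, adjusted p = 0.00212). *Cd81*, a tetraspanin at the edge of the cluster, read 9.76, 9.52 and 10.42 against 12.47, 12.20 and 12.25 (2.41 ± 0.23, adjusted p = 1.27e-05). In each of these 3 the groups did not overlap.

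The largest rises came from different lists. *Oasl2*, an interferon-induced member of the oligoadenylate synthetase family, was at background on the oviduct arrays (4.34, 4.41 and 4.36) and read 9.22, 8.24 and 8.84 with ISM1/ISM2, at least 10.65-fold higher (adjusted p = 4.81e-07). *Actn2*, an alpha-actinin of muscle, rose from background (4.73, 4.89 and 4.68) to 8.94, 8.68 and 8.99, at least 11.45-fold higher (adjusted p = 7.61e-07). *Krt14*, a basal keratin, read 4.61, 4.55 and 4.35 against 8.25, 6.91 and 8.15, at least 5.34-fold higher (adjusted p = 0.00115). The oviduct arrays were dark and the ISM1/ISM2 arrays lit for all 3.

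*Gulo*, the last enzyme of vitamin C synthesis, read 6.16, 5.89 and 4.40 on the oviduct arrays and 9.89, 9.28 and 8.82 with ISM1/ISM2 (3.84 ± 0.43, adjusted p = 4.17e-05). *Mocos*, which sulfurates the molybdenum cofactor, read 4.57, 5.78 and 5.83 against 9.64, 8.40 and 8.13 (3.33 ± 0.52, adjusted p = 0.00051). The list of vitamin and cofactor enzymes that holds both had 4 rises and 4 falls among 23 tested of 39 listed, so these 2 rises had opposites. *Gphn*, which assembles the molybdenum cofactor, fell from 7.20, 7.05 and 7.52 to 5.39, 5.39 and 5.37 (-1.87 ± 0.16, adjusted p = 6.83e-06). *Slc40a1*, the iron exporter ferroportin, read 11.10, 12.75 and 13.31 against 8.84, 8.81 and 9.73 (-3.26 ± 0.52, adjusted p = 0.000678).

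*Gm16367*, a predicted gene, read 7.61, 7.16 and 7.08 on the oviduct arrays and 11.05, 11.18 and 11.15 with ISM1/ISM2 (3.85 ± 0.32, adjusted p = 4.56e-06), and its other probe differed by 2.08. *Sycn*, the pancreatic granule protein syncollin, read 10.11, 10.10 and 10.10 on the ISM1/ISM2 arrays and 8.04, 7.22 and 5.19 on the oviduct arrays (3.28 ± 0.51, adjusted p = 0.000543). The tight ISM1/ISM2 values of both genes contrasted with a wide spread on the oviduct arrays for *Sycn*.

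Within the methionine and choline cycle, 5 genes rose and 2 fell among 20 tested of 30 listed, with a median of -0.10. The falls numbered 1 without ISM1/ISM2 replicate 1 or any 1 array of HTF/MultiBlast or the micromanipulation control. *Pemt*, which methylates phosphatidylethanolamine to phosphatidylcholine, read 7.97, 6.88 and 5.48 on the oviduct arrays and 10.74, 10.32 and 10.69 with ISM1/ISM2 (3.80 ± 0.43, adjusted p = 4.3e-05). *Bhmt*, which passes a methyl group from betaine to homocysteine, averaged 8.39 ± 0.50 (SD, n = 3) on the oviduct arrays and 11.05 ± 0.26 (SD, n = 3) with ISM1/ISM2 (2.66 ± 0.31, adjusted p = 5.26e-05). *Bhmt2*, its neighbour on chromosome 13 and a close relative, read 4.48, 4.65 and 7.30 against 9.07, 8.61 and 8.72 (3.32 ± 0.60, adjusted p = 0.00154), a call lost with oviduct replicate 3 as the only oviduct array. *Dmgdh*, which takes the next methyl group from dimethylglycine, also on chromosome 13, was higher by 1.45 ± 0.32 (adjusted p = 0.00487). *Ahcy*, which clears the product of methylation reactions, differed by -0.18 ± 0.27 (adjusted p = 0.657).

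Among lipid enzymes, the share of rises was above that of all units for cholesterol synthesis and near it for fatty acid genes. Cholesterol synthesis had 6 rises (31.6%) and 1 fall (5.26%) among 19 tested of 27 listed (median 0.64), against 14.3% and 11.5% of all units. Without ISM1/ISM2 replicate 1 there were 2 rises, and the fall was lost without ISM1/ISM2 replicate 1 or 3 or oviduct replicate 2. *Ebp*, the sterol isomerase, read 9.65, 10.31 and 10.22 on the oviduct arrays and 12.25, 12.03 and 12.23 with ISM1/ISM2 (2.11 ± 0.27, adjusted p = 0.000112), and *Tm7sf2*, a sterol reductase, was higher by 0.99 ± 0.17 (adjusted p = 0.0012). *Hmgcs1* (adjusted p = 0.809) and *Sqle* (adjusted p = 0.688), at earlier steps, overlapped between the groups. Among 27 tested fatty acid genes of 37 listed, 5 rose (18.5%) and 2 fell (7.41%), with a median of 0.02. Without ISM1/ISM2 replicate 1, 3 rose and 0 fell, and the falls were 0 without oviduct replicate 2 and 1 without ISM1/ISM2 replicate 2, oviduct replicate 3 or HTF/MultiBlast replicate 3. *Fads2*, the delta-6 desaturase of polyunsaturated fatty acids, was at background on the oviduct arrays (4.35, 4.42 and 4.33) and read 7.62, 6.40 and 6.61 with ISM1/ISM2, at least 2.88-fold higher (adjusted p = 1.8e-05).

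Glutathione and antioxidant genes had 17 rises and 3 falls among 40 tested of 48 listed, with a median of 0.46, and 11 rises without ISM1/ISM2 replicate 1 and 8 when only the 2 groups were fitted. *Gpx2*, a glutathione peroxidase, read 8.71, 9.12 and 8.82 on the oviduct arrays and 11.27, 11.10 and 10.63 with ISM1/ISM2 (2.12 ± 0.24, adjusted p = 4.76e-05). *Cbr3*, a carbonyl reductase, was higher by 2.11 ± 0.34 (adjusted p = 0.000671), *Gstp1*, a glutathione transferase, by 1.70 ± 0.21 (adjusted p = 8.77e-05) and *Gclm*, a subunit of the enzyme that starts glutathione synthesis, by 1.16 ± 0.27 (adjusted p = 0.00656). *Gsta2* fell, from 11.54, 12.22 and 12.05 to 8.49, 9.13 and 8.87 (-3.11 ± 0.24, adjusted p = 2.86e-06). *Gsta1* read alike (-2.87 ± 0.22, adjusted p = 2.86e-06), but both are near-identical copies whose probes may share signal. *Hmox1*, the heme oxygenase of oxidative stress, differed by -0.73 ± 0.42 (adjusted p = 0.217).

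Called osmolyte carriers went in both directions. *Slc6a13*, a GABA and taurine carrier, read 8.35, 7.26 and 7.33 on the oviduct arrays and 10.91, 10.84 and 10.98 with ISM1/ISM2 (3.26 ± 0.36, adjusted p = 3.72e-05). *Slc6a12*, the betaine carrier BGT1 next to it on chromosome 6, was at background on the oviduct arrays (4.44, 5.04 and 4.44) and read 7.22, 7.40 and 6.96, at least 3.57-fold higher (adjusted p = 6.66e-06). *Slc6a6*, the main taurine carrier, differed by 0.31 ± 0.25 (adjusted p = 0.387), and *Slc6a8*, for creatine, by 0.30 ± 0.21 (adjusted p = 0.307). With the glycine carrier *Slc6a9* counted in, the list had 2 rises (18.2%) and 1 fall (9.09%) among 11 tested of 19 listed. Shares over all units were 14.3% and 11.5%. There were 2 falls without oviduct replicate 1.

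Interferon and class I antigen genes had 6 rises and 2 falls among 22 tested of 45 listed, with a median of 0.16. *B2m*, the light chain of class I molecules, read 7.10, 6.71 and 6.38 on the oviduct arrays and 9.39, 9.06 and 9.77 with ISM1/ISM2 (2.68 ± 0.34, adjusted p = 0.000112). Its other probe differed by 2.79. *Bst2*, the antiviral tetherin, read 7.05, 6.31 and 6.12 against 8.14, 7.66 and 7.82 (1.38 ± 0.29, adjusted p = 0.00411), and *Psmb9*, a subunit of the immunoproteasome, was higher by 1.33 ± 0.28 (adjusted p = 0.004). *Ifitm3*, another interferon-induced gene, was lower by -1.49 ± 0.28 (adjusted p = 0.00192), as was the cytokine signal transducer *Stat3* (-2.21 ± 0.47, adjusted p = 0.00439).

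*Ly96*, a partner of the endotoxin receptor, read 4.67, 6.70 and 8.40 on the oviduct arrays and 11.06, 9.93 and 10.15 with ISM1/ISM2 (3.79 ± 0.89, adjusted p = 0.00739), a call lost with oviduct replicate 3 as the only oviduct array. The interferon-stimulated response element (ISRE) letters GAAANNGAA, searched like the motif above, were present in the promoter window of 9 of the 20 interferon list genes that have one and in 9.76% of all genes. Of those 9 genes, 3 passed the test, against 4 of the 11 without a match. Of these, *B2m* and *Bst2* rose, and *Ifitm3*, the other gene with a match that passed, fell. The 2 risen genes are shown, with the matching letters in capitals. The *Bst2* window holds a second, overlapping match, and the *Ifitm3* matches are not printed.
B2m, chr2:122147533-122147571, plus strand: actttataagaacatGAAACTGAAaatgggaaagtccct
Bst2, chr8:71537573-71537611, minus strand: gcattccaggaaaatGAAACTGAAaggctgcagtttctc

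Genes of the germline and of the oocyte rose more often than they fell. Among 16 tested germline genes of 41 listed, 8 rose and 0 fell, with a median of 0.99. *Tex19.2*, expressed in germ cells and placenta, read 9.86, 9.37 and 9.93 on the oviduct arrays and 12.31, 11.97 and 11.80 with ISM1/ISM2 (2.31 ± 0.28, adjusted p = 7.12e-05), whereas its paralogue *Tex19.1* differed by -0.04 ± 0.34 (adjusted p = 0.947). *Magea2*, an X-linked melanoma antigen gene, averaged 7.58 ± 0.57 (SD, n = 3) on the oviduct arrays and 9.89 ± 0.57 (SD, n = 3) with ISM1/ISM2 (2.31 ± 0.43, adjusted p = 0.00174). *Magea5* differed by 2.36 ± 0.42 (adjusted p = 0.00147), with a second probe at 0.68, and as the Magea genes are close copies their probes may share signal. *Asz1*, of the piRNA pathway, was higher by 1.77 ± 0.34 (adjusted p = 0.00222).

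Among 11 tested oocyte and maternal-effect genes of 35 listed, 5 rose (45.5%) and 0 fell, with a median of 1.48. Over all units, 14.3% rose and 11.5% fell. Of 32 members on the array, 11 met the detection rule. A member of this or the germline list that was dark on all oviduct arrays, such as *Obox6*, entered only through other groups. This favours rises in both counts. *Padi6*, a component of the oocyte lattices, read 6.37, 5.96 and 5.35 on the oviduct arrays and 8.81, 8.17 and 8.99 with ISM1/ISM2 (2.76 ± 0.34, adjusted p = 8.6e-05). *Obox6*, an oocyte homeobox gene, rose from background to 6.97, 6.12 and 6.54, at least 2.28-fold higher (adjusted p = 6.1e-05). *Nlrp14*, a maternal-effect gene, was higher by 1.72 ± 0.32 (adjusted p = 0.00192). *Gdf9*, the oocyte growth factor, read 6.47, 7.16 and 4.35 against 8.23, 7.76 and 6.61 with overlap (adjusted p = 0.0599).

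In energy metabolism the calls were mixed. Glycolysis and glucose transport had 5 rises and 3 falls among 23 tested of 36 listed, with 5 falls when either KSOM(aa) array was left out. *Ldha*, lactate dehydrogenase A, read 9.26, 9.22 and 9.75 on the oviduct arrays and 7.67, 6.91 and 7.54 with ISM1/ISM2 (-2.03 ± 0.26, adjusted p = 9.72e-05), and *Pfkp*, a phosphofructokinase, was at least 2.53-fold lower (adjusted p = 5.39e-05), although its other probe differed by -0.28. *Eno2*, an enolase, was higher by 2.06 ± 0.24 (adjusted p = 4.76e-05) and *Aldoc*, an aldolase, by 1.81 ± 0.29 (adjusted p = 0.000622). The glucose carriers *Slc2a1* (adjusted p = 0.222) and *Slc2a3* (adjusted p = 0.0726) were not called.

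Hypoxia-linked genes gave 5 rises and 5 falls among 20 tested of 25 listed, with 2 rises without ISM1/ISM2 replicate 1 and 3 without oviduct replicate 1 or 2. *Vegfa*, the vascular growth factor, read 8.60, 9.41 and 9.97 on the oviduct arrays and 5.37, 5.91 and 6.01 with ISM1/ISM2 (-3.56 ± 0.46, adjusted p = 0.000112), and its other probe differed by -1.27. *Ndrg1*, another hypoxia-induced gene, differed by -1.50 ± 0.22 (adjusted p = 0.000328). *Epas1*, which encodes the hypoxia factor HIF-2 alpha, averaged 6.69 ± 0.53 (SD, n = 3) on the oviduct arrays and 8.95 ± 0.05 (SD, n = 3) with ISM1/ISM2 (2.26 ± 0.25, adjusted p = 4.14e-05), with other probes at 0.81 and 1.13.

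Calls among cell cycle genes were about as frequent as over all units, where 14.3% rose and 11.5% fell. The cell cycle list had 7 rises and 4 falls among 40 tested of 60 listed. The rises were 4, 3 and 4 without ISM1/ISM2 replicates 1, 2 and 3, and the falls 2 without ISM1/ISM2 replicate 1 or 2 or oviduct replicate 1 or 3. Scaling to the 75th percentile gave 12 rises. *Ccnd1*, cyclin D1 of the entry into the cycle, read 8.48, 8.88 and 8.51 on the oviduct arrays and 6.48, 5.38 and 4.68 with ISM1/ISM2 (-3.11 ± 0.37, adjusted p = 6.53e-05), with the second probe at -3.24. *Cdkn2b*, an inhibitor of the cyclin D kinases, read 4.71, 5.69 and 5.70 against 8.24, 7.33 and 7.02 (2.16 ± 0.39, adjusted p = 0.00152).

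The p53 and apoptosis list had 8 rises and 2 falls among 27 tested of 39 listed, with a median of 0.36. The falls numbered 1 without ISM1/ISM2 replicate 2 or 3 or oviduct replicate 2. *Tnfrsf10b*, a death receptor, read 7.15, 6.42 and 7.01 on the oviduct arrays and 8.83, 8.51 and 8.67 with ISM1/ISM2 (1.81 ± 0.23, adjusted p = 8.9e-05), and *Perp*, an apoptosis effector of p53, was higher by 1.08 ± 0.21 (adjusted p = 0.00217). The 2 standard p53 targets *Cdkn1a* (0.69 ± 0.34, adjusted p = 0.157) and *Mdm2* (-0.16 ± 0.21, adjusted p = 0.605) were not called. *Mlkl*, the executor of necroptosis and not a member of the list, was at background on the oviduct arrays (4.43, 4.68 and 4.34) and read 8.36, 7.07 and 7.03 with ISM1/ISM2, at least 4.39-fold higher (adjusted p = 2.83e-05), with a second probe at 0.93.

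Heat shock genes had 4 rises and 0 falls among 20 tested of 25 listed, led by *Dnaja1*, a DNAJ chaperone (1.99 ± 0.37, adjusted p = 0.00189), and *Hspb8*, a small heat shock protein (1.84 ± 0.27, adjusted p = 0.000386). *Hspb1* (adjusted p = 0.963) and *Hspd1* (adjusted p = 0.589) overlapped between the groups. The lysosomal list, which holds *Ctsll3* and *BC051665*, had 8 rises and 6 falls among 32 tested of 43 listed, with a median of 0.20. *Lamp2*, a lysosomal membrane protein, was higher by 1.93 ± 0.43 (adjusted p = 0.00514) and *Ctsh*, cathepsin H, by 1.04 ± 0.21 (adjusted p = 0.00269), while *Ctsb*, cathepsin B, was not called (adjusted p = 0.204).

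Muscle-type cytoskeletal genes, to which *Actn2* and *Fhl1* belong, had 4 rises and 5 falls among 27 tested of 38 listed. Nutrient-sensing genes had 1 rise and 5 falls among 27 tested of 36 listed. The falls were 2 without ISM1/ISM2 replicate 1 or 3 or oviduct replicate 2, and 3 without oviduct replicate 1, HTF/MultiBlast replicate 2 or 3, or any 1 micromanipulation control array. The rises were 2 without either KSOM(aa) array or oviduct replicate 2, and 4 without oviduct replicate 1. *Rraga*, a GTPase that passes amino acid supply to mTORC1, read 8.38, 7.99 and 8.16 on the oviduct arrays and 6.44, 6.35 and 6.69 with ISM1/ISM2 (-1.68 ± 0.25, adjusted p = 0.000401).

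Calls among chromatin genes were mainly falls. DNA methylation genes had 1 rise and 4 falls among 13 tested of 23 listed. The falls were 2 without ISM1/ISM2 replicate 2 or oviduct replicate 1 or 3, and 0 under scaling to the 75th percentile, with no sign turned. Histone modifiers had 6 falls (21.4%) and 0 rises among 28 tested of 44 listed, with a median of -0.17. Over all units, 11.5% fell and 25.8% were called in either direction. The falls of histone modifiers numbered 4 to 6 with 1 array left out. They were led by *Kat2a*, an acetyltransferase at background on every ISM1/ISM2 array (at least 2.30-fold lower, adjusted p = 0.00187). *Dnmt1*, the maintenance methyltransferase (adjusted p = 0.813), and *Ezh2*, of the Polycomb complex (adjusted p = 0.642), overlapped between the groups.

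The 2 largest lists of housekeeping machinery lay below the background of 25.8%. Of 69 tested respiratory chain genes of 76 listed, 3 rose and 1 fell, with a median of 0.17. The rises numbered 1 without ISM1/ISM2 replicate 1 or 2 or oviduct replicate 2, 6 without either KSOM(aa) array, 9 without oviduct replicate 1 and 13 under scaling to the 75th percentile. *Ndufa12*, of complex I, was higher by 0.99 ± 0.20 (adjusted p = 0.00336). Of 55 tested ribosomal protein genes of 79 listed, 2 rose and 2 fell, with a median of 0.00. The rises numbered 0 without ISM1/ISM2 replicate 2, 1 without ISM1/ISM2 replicate 1 or 3 or oviduct replicate 2, 4 without either KSOM(aa) array and 6 under scaling to the 75th percentile. The falls numbered 1 without ISM1/ISM2 replicate 1 or 2, oviduct replicate 1 or any 1 array of HTF/MultiBlast or the micromanipulation control. *Rpl22* was the one with the smallest p, reading 11.16, 11.41 and 11.05 on the oviduct arrays and 9.14, 9.64 and 9.73 with ISM1/ISM2 (-1.71 ± 0.19, adjusted p = 4.16e-05).

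ISM1/ISM2 was also set against the other 2 culture groups, in comparisons that use the same 3 ISM1/ISM2 arrays. Against HTF/MultiBlast, 618 units (7.13%) passed, 327 higher (3.77%) and 291 lower (3.36%). That count was 279 without HTF/MultiBlast replicate 2, 333 without HTF/MultiBlast replicate 3, 321 without ISM1/ISM2 replicate 1 and 362 without the micromanipulation control group. Against KSOM(aa), 1006 units (11.6%) passed, 545 higher (6.29%) and 461 lower (5.32%). This count was 1262 without KSOM(aa) replicate 1, 625 without KSOM(aa) replicate 2, 601 without ISM1/ISM2 replicate 1 and 667 without the micromanipulation control group.

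Counts for 4 lists against the other media follow; they share the ISM1/ISM2 arrays with the oviduct comparison and are not independent of it. Among 16 carriers, 5 were lower than in HTF/MultiBlast and 9 lower than in KSOM(aa), among 20 ATF4 genes 4 and 8, among 21 cytosolic synthetases 2 and 7, and among 18 basement membrane genes 7 and 9. Without KSOM(aa) replicate 2 the counts against KSOM(aa) were 7, 6, 1 and 9, and without KSOM(aa) replicate 1 they were 10, 7, 8 and 9. Without HTF/MultiBlast replicate 2 the counts against HTF/MultiBlast were 4, 2, 1 and 6, and without HTF/MultiBlast replicate 3 they were 4, 4, 1 and 6. None of these lists held a gene higher in ISM1/ISM2 than in either medium. *Slc7a3* averaged 8.77 in HTF/MultiBlast and 10.48 in KSOM(aa). It was at least 10.48-fold lower in ISM1/ISM2 than in HTF/MultiBlast (adjusted p = 2.79e-05) and at least 34.3-fold lower than in KSOM(aa) (adjusted p = 1.13e-06). *Lama1* was lower in ISM1/ISM2 by -2.51 than in HTF/MultiBlast (adjusted p = 0.000119) and by -3.71 than in KSOM(aa) (adjusted p = 6.25e-06).

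For some genes the means of both other media lay nearer to the oviduct mean than to the ISM1/ISM2 mean. *BC051665* averaged 13.62 in HTF/MultiBlast and 13.79 in KSOM(aa) and was lower in ISM1/ISM2 by -3.99 (adjusted p = 0.000334) and -4.16 (adjusted p = 0.000354). *Elf5* averaged 9.95 and 10.28, with differences of -2.81 (adjusted p = 0.000817) and -3.14 (adjusted p = 0.000517). *Fads2* was detected in neither and was at least 3.06-fold higher in ISM1/ISM2 than in HTF/MultiBlast (adjusted p = 0.000171) and at least 2.95-fold higher than in KSOM(aa) (adjusted p = 0.000196). *Pemt* averaged 7.84 and 7.68, below ISM1/ISM2 by 2.75 (adjusted p = 0.00201) and 2.91 (adjusted p = 0.00202).

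*Kif3c*, a kinesin motor subunit, read 9.12, 7.07 and 7.51 on the ISM1/ISM2 arrays and 4.51, 5.06 and 5.10 on the oviduct arrays, and averaged 5.10 in HTF/MultiBlast and 4.80 in KSOM(aa). It was at least 5.85-fold higher than in oviduct (adjusted p = 0.000186) and at least 5.99-fold higher than in KSOM(aa) (adjusted p = 0.00108). Against HTF/MultiBlast, where 1 of 3 arrays detected it, the fitted difference was 2.80 (adjusted p = 0.00136). *Gpx2* averaged 8.90 and 8.61 in the other media, with differences of 2.10 (adjusted p = 0.000296) and 2.40 (adjusted p = 0.000196). *Ebp* gave differences of 1.89 (adjusted p = 0.00111) and 1.95 (adjusted p = 0.00139).

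The means of *Bhmt* and *Cdkn1c* lay nearer to ISM1/ISM2 in HTF/MultiBlast and nearer to oviduct in KSOM(aa). *Bhmt* averaged 10.96 in HTF/MultiBlast, 0.08 below ISM1/ISM2 (adjusted p = 0.913), and 9.17 in KSOM(aa), 1.87 below (adjusted p = 0.00393). *Cdkn1c* differed by 0.29 (adjusted p = 0.748) from HTF/MultiBlast and by 2.15 (adjusted p = 0.00885) from KSOM(aa). *Magea2* averaged 10.43 in HTF/MultiBlast, with a difference of -0.54 (adjusted p = 0.521), and 8.88 in KSOM(aa), with one of 1.01 (adjusted p = 0.195). *Oasl2* averaged 6.41 in HTF/MultiBlast, between oviduct and ISM1/ISM2, with a difference of 2.36 (adjusted p = 0.000221). No KSOM(aa) array detected it, and it was at least 10.9-fold higher in ISM1/ISM2 than there (adjusted p = 5.18e-06).

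**Figure D5:**
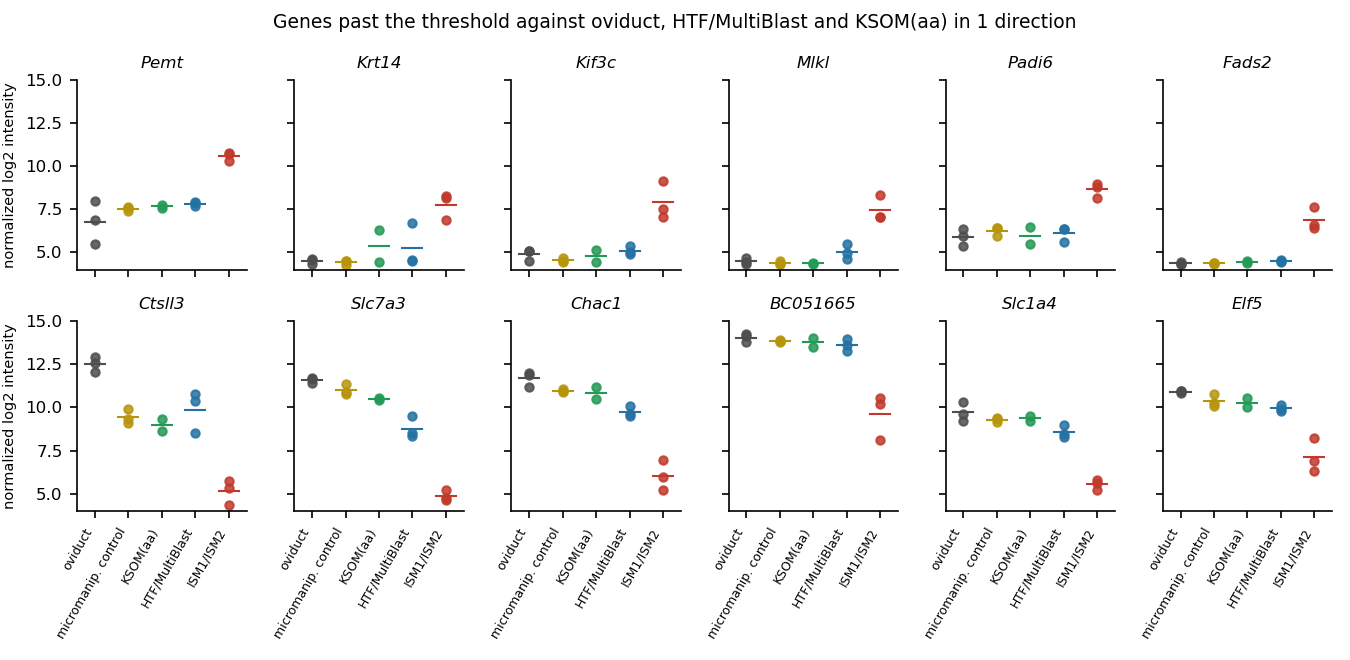
Normalized log2 intensity on each array of all 5 groups for the 6 genes in each direction that passed against oviduct, HTF/MultiBlast and KSOM(aa) with 1 sign and by the widest margin; horizontal ticks are group means. The ISM1/ISM2 arrays lie above all other arrays in the upper row and below them in the lower row, and *Ctsll3* is highest on the oviduct arrays.

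The micromanipulation control gives the level of the same genes in a group described by no culture medium. *Slc7a3* averaged 11.01 there, *Lama1* 11.55, *Elf5* 10.39, *Pemt* 7.55 and *Fads2* 4.38. *Bmp4* averaged 6.69 in that control, between its oviduct and ISM1/ISM2 levels, and *Ctsll3* 9.45. No test against the control was made here.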

How the data were processed

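One-colour Illumina bead arrays, hybridized from 150 ng of RNA per the labels, covered 14 mouse samples in 5 groups. For the deposited intensity of each probe, uncorrected and not normalized, the submitters' processing notes name BeadStudio 3.2. Its detection p-value was taken from the column headed Detection that follows each intensity column. The authors' deposited log2 values, for which those notes name lumi and RMA, served only as an alternative. Background correction, quantile normalization and the log2 step were done here with neqc (limma 3.58.1, R 4.3.3, offset 16). All 5 groups entered 1 limma fit with moderated variances (9 residual and 4.32 prior degrees of freedom, 2 of the 9 from control arrays that may be technical repeats), which gave two-sided p-values, adjusted by Benjamini and Hochberg over 8669 units, and 0.05 was the limit. The SE of a log2 difference had a median of 0.256.

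For an "at least" fold, the bright group's mean was set against a mean of floors: on each array of the dim group, either the weakest detected signal or the probe's own, whichever was larger. Symbols come from the platform annotation. Of 23978 probes with a single symbol, 23962 matched RefSeq.

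The members, gene lists and motifs were chosen with earlier results of these data known. Motifs were searched in the same way for the antioxidant, cholesterol and lysosomal lists and are not described here. Named genes are the 12 largest rises and 12 largest falls without overlap, up to 6 members of each list with the smallest p plus members fixed by name, the 6 genes per direction past all 3 comparisons by the widest margin, motif holders among these, and markers. *Vldlr*, *Slc7a7*, *Iars*, *Yars* and *Got1* are named beyond that rule as holders of the motif. Deviations of ISM1/ISM2 and oviduct arrays with the same number correlated at -0.0228, 0.157 and 0.154, and those with different numbers at -0.205 to 0.115. With 3 arrays per group this cannot decide whether the numbers pair the arrays, and pairing was not assumed.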

Additional observations from a re-analysis of the deposited data

Results flagged for a closer look

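Some genes stood on one side of oviduct on all 3 ISM1/ISM2 arrays and on the other side on every array of another culture group. This is a comparison of the positions of few arrays, and no group was large enough for a check of single outlying arrays. The genes were picked from those named above by these positions and an adjusted p under 0.05 between the 2 culture groups. Their p-values below are therefore part of the choice and no separate evidence. The share of all units that meet this rule is not given, and the other culture groups were not tested against oviduct. Against KSOM(aa), *Tex19.2* was higher in ISM1/ISM2 by 2.95 on the log2 scale (limma, adjusted p = 0.000144), *Cbr3* by 2.91 (adjusted p = 0.000427), *Dmgdh* by 2.39 (adjusted p = 0.00108), *Rhox5* by 1.44 (adjusted p = 0.00247) and *Rpl24* by 1.30 (adjusted p = 0.0085). Each was above oviduct in ISM1/ISM2 and below it in KSOM(aa). *Slc38a4*, an amino acid carrier, lay the other way, at -1.08 (adjusted p = 0.00693). With 1 array left out, the calls of *Rhox5* and *Rpl24* against oviduct were each lost in 4 of 14 fits. That of *Slc38a4* was lost in 2.

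Against HTF/MultiBlast, *Phlda2* was lower in ISM1/ISM2 by -2.11 (adjusted p = 0.00087), *Igf2* by -1.80 (adjusted p = 0.00093) and *Elf3* by -0.96 (adjusted p = 0.0082). These 3 were below oviduct in ISM1/ISM2 and above it in HTF/MultiBlast, although the difference of *Elf3* from oviduct was not called for the probe used (adjusted p = 0.0887), while its other probe differed by -0.81 (adjusted p = 0.0116 with every tested probe fitted). *Insig1*, a regulator of sterol synthesis, was higher in ISM1/ISM2 by 1.29 (adjusted p = 0.00144), but its probes disagreed: against oviduct the one used differed by 0.65 and another by -2.41 (adjusted p = 0.00393 with every tested probe fitted). The call of *Insig1* against oviduct was lost in 3 of the 14 fits with 1 array left out. The 2 imprinted genes of this set restrain (*Phlda2*) and promote (*Igf2*) growth. With 2 KSOM(aa) arrays, of which replicate 2 stood apart, the KSOM(aa) positions rest on few values.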

How the results depend on the processing

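The number of genes that differed from oviduct, 2237, was 1456 when only the 2 groups were fitted and 1187 with oviduct replicate 2 as the only oviduct array. It ran from 1561 (without ISM1/ISM2 replicate 1) to 2575 (without either KSOM(aa) array) with 1 array left out. The authors' deposited log2 values gave 2141, of which 2084 were shared, and scaling to the 75th percentile gave 2194, of which 1748 were shared, with a median difference of 0.0834. Against HTF/MultiBlast the count of 618 was 1561 with array weights and 279 to 787 with 1 array left out. Against KSOM(aa) the count of 1006 was 347 with array weights, 263 when only the 2 groups were fitted and 601 to 1262 with 1 array left out. Without the micromanipulation control group, an alternative chosen after seeing the data, the counts were 1760, 362 and 667, and among the lists the falls of imprinted and of muscle-type genes were 3 each, the rises of primitive endoderm genes 2, the rises and falls of cell cycle genes 4 and 2, and those of respiratory chain genes 1 and 0. With a replicate block the counts were 2238, 583 and 933, although the numbers were not taken to pair the arrays. Of 226 named genes called against oviduct, 116 were called under each of the 29 settings that gave a value for them. In every fit with 1 array left out, 180 were called, and 0 reversed under any setting. Some genes with a dark group, such as *Slc7a3* and *Oasl2*, had values under 28 settings. The fit limited to probes detected on all 14 arrays left them out. Probes near the detection limit carry little information: those detected on exactly 2 arrays had a median level of 4.93, against 8.80 for those detected on all 14.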

Other observations

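Transcripts of the 2-cell stage varied between arrays of 1 group. *Tcstv3* read 7.85, 7.40 and 12.67 on the ISM1/ISM2 arrays and 9.41, 5.68 and 10.06 on the oviduct arrays. *Tcstv1* read 6.06, 6.41 and 11.78 against 8.25, 4.88 and 8.77, and *Zscan4c*, which marks a rare 2-cell-like state of stem cells, 4.57, 4.32 and 7.61 against 5.79, 4.55 and 5.85. ISM1/ISM2 replicate 3 was the highest and oviduct replicate 2 the lowest or near it for each, and none of these 3 genes was called. Of 11 tested genes of that list (19 listed), 1 rose, *Pramel13*, higher by 1.49.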
